A study of Rattus norvegicus with 13 samples.

Results

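The comparison described here sets an epithelial line against a fibroblastic line, both derived from the same rat tumour model and grown without the other cell type. It was drawn from a series of 13 single-colour Affymetrix rat arrays of which 7 were used: those whose titles name the tumour-derived epithelial cells (3 arrays) and those whose titles name the tumour-derived fibroblastic cells (4 arrays). Arrays of tumours and of co-cultures were left out. The members are all genes named by a probe set that names no other gene, 14217 in all, measured as log2 values, and each difference is the epithelial mean minus the fibroblastic mean. A positive difference therefore means a higher level in the epithelial line, and a difference of 1 is 2-fold.

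The tumours of the study are cholangiocarcinomas, cancers of the bile duct lining, grown in rats from BDEsp cells. The epithelial group is clone H10 of a BDEsp tumour-derived epithelial line, and the fibroblastic group is clone E4 of a BDEsp tumour-derived fibroblastic line, which the study calls a cancer-associated fibroblast positive for alpha smooth muscle actin. The labels give Fischer 344 as the genetic background of both, and each was grown by itself in a gel made of type I collagen from rat tail. Each line is 1 clone, so the comparison is of these 2 clones. The labels do not say whether arrays of a group came from separate cultures, and p-values measure the spread between arrays, which may be technical.

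Bile duct epithelium is a sheet of polarised cells held together by tight junctions, adherens junctions and desmosomes, with simple keratins as its main intermediate filaments and with channels that add bicarbonate and water to bile. Cholangiocarcinoma is known for a dense stroma, in which activated fibroblasts secrete and crosslink collagen, contract through actin stress fibres and exchange growth factors and cytokines with the tumour cells. Transcription factors of the Zeb, Snail and Twist families are known to hold down junction genes in mesenchymal cells, and grainyhead-like and Esrp factors are known to maintain the epithelial state.

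The arrays of the fibroblastic line fell into pairs. Over the 20826 probe sets that name 1 gene, fibroblastic arrays 1 and 3 correlated at 0.986 and arrays 2 and 4 at 0.989. Correlations between the pairs ran from 0.946 to 0.960. The 3 epithelial arrays correlated at 0.970 to 0.974, and the lines correlated with each other at 0.768 to 0.812. The difference between the 3' and 5' beta-actin control probe sets, a measure of RNA integrity, was 1.72, 2.65, 1.05 and 2.01 log2 units in fibroblastic arrays 1 to 4 and 1.20, 1.47 and 0.86 in the epithelial arrays. It was highest in fibroblastic arrays 2 and 4, and its part in the results was not tested. For the Gapdh controls the difference was 0.15, 0.27, -0.04 and 0.15 in fibroblastic arrays 1 to 4, so that the pairs overlapped. Counts over gene groups that move by over 1.5 times without arrays 2 and 4, or without arrays 1 and 3, are also given without them.

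The labels were first set against marker genes. Of 12 cholangiocyte markers measured, 10 were higher and 1 was lower in the epithelial line. A gene is called higher or lower where limma gives it an adjusted p under 0.05. Of 16 fibroblast markers, 0 were higher (also 0 at an unadjusted p under 0.05) and 12 lower. Over all genes, 20.9% were called higher and 16.6% lower. The simple keratin Krt19 was at 13.90, 14.24 and 14.07 in epithelial arrays 1 to 3 and at 4.17, 4.24, 4.01 and 4.29 in fibroblastic arrays 1 to 4. Alpha smooth muscle actin, encoded by Acta2, was at 6.37, 6.45 and 7.90 in the epithelial arrays and at 12.13, 9.29, 12.04 and 10.29 in the fibroblastic arrays. Neither gene had overlapping groups. In bulk RNA, fewer cells that express a gene and less of its RNA per cell cannot be told apart.

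Some defining markers went against the labels or were near the bottom of the scale. Spp1, the secreted glycoprotein osteopontin listed among the cholangiocyte markers, was lower in the epithelial line (difference -7.04), at 5.55, 6.04 and 5.97 against 12.12, 13.48, 12.54 and 13.45. Fibroblast activation protein, Fap, was at 5.26, 4.74 and 4.71 in the epithelial and 4.43, 6.14, 4.88 and 5.87 in the fibroblastic arrays and was not called (difference -0.43, 95% interval -1.39 to 0.53). The matrix proteoglycan Dcn was at 4.32, 4.15 and 4.50 against 4.34, 6.84, 4.26 and 6.53, so that only fibroblastic arrays 2 and 4 stood above the epithelial arrays. Lum, a related proteoglycan, followed the same order of arrays, with 3.57, 4.68, 3.52 and 5.34 in the fibroblastic line. S100a4, often used as a fibroblast marker, differed by 0.21 (95% interval -0.19 to 0.62). The receptors Pdgfra and Pdgfrb and the surface glycoprotein Thy1 were lower in the epithelial line, with differences of -4.06, -5.96 and -6.10.

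Markers of the liver's own mesenchymal cells were mixed. Of 17 hepatic stellate cell markers, 6 were lower and 0 higher in the epithelial line by limma (1 at an unadjusted p under 0.05, and 1 called without epithelial array 1), and 10 were lower with fibroblastic arrays 1 and 3 left out. The muscle-type filament Des differed by -3.31 and the transcription factor Hand2 by -2.45, whereas Lrat, which makes retinyl esters, and the glial filament Gfap differed by -0.18 and 0.21 and were not called. Of 15 portal fibroblast markers, 4 were higher and 7 lower. The higher ones included Msln, the surface protein mesothelin (6.60), and Entpd2, a nucleotidase (3.46), and the lower ones included Slit2, a guidance ligand (-6.90), and the microfibril gene Mfap4 (-3.87). Of 10 mesothelial markers, 2 were higher (Krt19 and Msln) and 2 lower (Wt1, -2.36, and Cd200, -5.64).

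Markers of other cell types that the tumour could hold were read in the same way. The mean level of 19 macrophage markers ran from 5.18 to 5.51 in the epithelial and 5.07 to 5.36 in the fibroblastic arrays, that of 17 lymphocyte markers from 4.91 to 5.18 and 4.58 to 4.88. For 18 endothelial markers the means were 4.94 to 5.05 and 4.87 to 5.12, and for 19 hepatocyte markers 4.82 to 5.09 and 4.60 to 4.87. The leucocyte antigen Ptprc was at 4.28, 4.59 and 4.49 against 4.50, 4.48, 4.53 and 4.37 and the liver product Alb at 4.78, 5.05 and 5.11 against 5.06, 5.35, 4.87 and 5.26, with overlapping groups in both. The shares called over all genes were 20.9% higher and 16.6% lower. Called higher in the epithelial line were 2 macrophage (10.5%), 3 lymphocyte (17.6%), 2 endothelial (11.1%) and 2 hepatocyte (10.5%) markers. The transcription factor Erg was the 1 endothelial marker called lower (-1.69). The endothelial lower count was 2 without fibroblastic arrays 2 and 4 and without arrays 1 and 3. The macrophage higher count was 0 without epithelial array 2 and 1 without epithelial array 3, without fibroblastic array 1, 2 or 3, or without either pair, and 1 macrophage marker was lower without fibroblastic arrays 1 and 3. The lymphocyte higher count was 1 without epithelial array 1 or 3, without fibroblastic array 2, or without fibroblastic arrays 2 and 4. The hepatocyte higher count was 0 without epithelial array 3 or without fibroblastic arrays 2 and 4, and 1 without epithelial array 1 or fibroblastic array 2 or 4, and 1 hepatocyte marker was lower without fibroblastic array 2 or without arrays 2 and 4. Of 20 skeletal and cardiac muscle markers, 1 was higher and 2 lower, the higher count being 0 without any single fibroblastic array or either pair of them and the lower count 1 without any single epithelial array or fibroblastic array 1 or 4, and 5 with fibroblastic arrays 2 and 4 left out.

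The lines differed at 5324 of 14217 genes, 37.4% of those tested. The epithelial line was higher at 2967 and lower at 2357, and of these 1668 and 1642 were at least 2-fold apart. The balance turned with the size of the difference. At a log2 difference of at least 2, 650 genes were higher and 865 lower, at 4 or more 198 and 343, at 6 or more 45 and 84, and at 8 or more 9 and 13. The median difference over all genes was 0.11. Across the genes named below, the standard error of the difference had a median of 0.28 log2 units and ran from 0.12 to 1.88. At 7497 genes (52.7%) the whole 95% interval of the difference lay inside 2-fold, of which 561 were called all the same, and at 1957 genes the line difference was neither called nor bounded inside 2-fold.

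**Figure D1:**
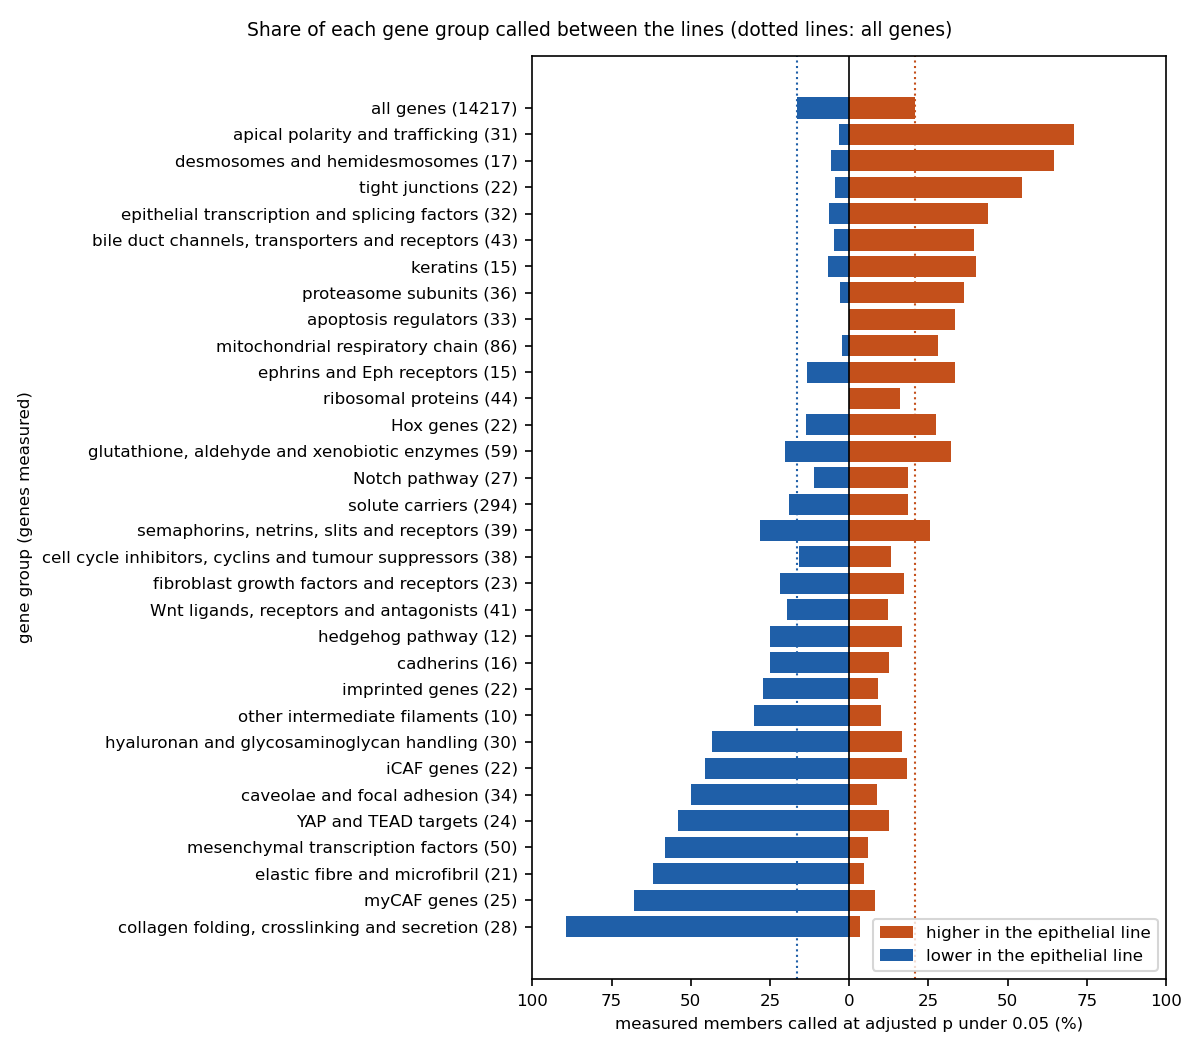
Share of the measured genes of each of 31 gene groups (vertical axis, number measured in brackets) that were called higher (right, orange) or lower (left, blue) in the epithelial line, in percent, with the shares over all genes as dotted lines. Collagen processing genes stand farthest to the left (25 of 28 lower) and polarity genes farthest to the right (22 of 31 higher).

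Among the largest epithelial differences, after the keratins, Cdh1, Epcam, Cd24, the tetraspanin Tspan8, the galectin Lgals4 and the calcium-binding Ocm, came 15 others. Mal2, which carries proteins to the apical membrane, was at 11.53, 12.24 and 11.90 against 4.25, 3.58, 3.84 and 3.76, a difference of 8.03 ± 0.22 (SE). Tgm1, the transglutaminase that crosslinks the cornified envelope, differed by 7.89 and Gabrp, a subunit of an epithelial GABA receptor, by 7.83. Pigr, which carries immunoglobulin A across epithelia, differed by 7.04, and Cldn18, a claudin, by 7.27. Il33 (7.16) and Il1a (6.99), cytokines stored in epithelial cells, were in this set together with the neutrophil-attracting chemokines Ppbp (7.17) and Cxcl6 (6.86). The rest were Plac8 (7.59), S100a14 (7.34), the sulfotransferase Sult1b1 (7.19), the hydrolase Cmbl (7.16), the protease inhibitor Serpinb2 (6.90) and the serine protease Prss22 (6.89). Only called genes whose epithelial and fibroblastic arrays did not overlap were ranked, here and on the fibroblastic side. Of all genes, 45.3% had no such overlap.

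On the fibroblastic side, after Postn, Col1a2, Mgp, Fn1, Grem1, Nrep, Nid1 and Col5a2, came the following. Igfbp7, which binds insulin-like growth factors, was at 4.59, 4.73 and 4.69 against 12.93, 13.14, 12.77 and 13.20, and the secreted glycoprotein Fstl1 at 5.17, 5.08 and 5.05 against 13.73, 12.94, 13.75 and 13.13. The mesenchymal cadherin Cdh11 differed by -8.12, the tetraspanin Cd81 by -8.02, the stress fibre tropomyosin Tpm2 by -7.98 and the galectin Lgals1 by -7.83. The set also held the secreted protease Prss23 (-8.14), the Golgi-associated Gask1b (-7.92), Tceal9 (-7.65), the secreted matrix protein Ccdc80 (-7.59), Lhfpl6 (-7.56), the reticulum calcium-binding protein Rcn1 (-7.56) and the cyclophilin Ppic (-7.54). For Cdh11 1 of 3 probe sets, and for Lhfpl6 1 of 2, had a difference of the opposite sign. Cd81 and Tspan8 are both tetraspanins, membrane organisers, and stood at opposite ends of the ranking.

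Keratins are the main filament proteins of epithelial cells. Krt8, the partner of Krt18 in simple epithelia, was at 13.43, 14.08 and 13.78 in the epithelial and 6.02, 6.0, 6.14 and 5.86 in the fibroblastic arrays, a 217-fold difference (limma, adjusted p = 7.13e-08). Krt7, the bile duct keratin, was at 13.67, 13.51 and 13.38 against 8.99, 5.40, 8.23 and 4.65, a difference of 6.70 ± 1.0 (SE). Fibroblastic arrays 1 and 3 were higher for Krt7 than arrays 2 and 4, and all were below the epithelial arrays, whereas Krt19 in the fibroblastic arrays spanned 4.01 to 4.29. Krt18 differed by 9.28. Of 15 keratin genes, 6 were higher and 1 lower in the epithelial line. The exception was Krt10, a keratin of differentiated skin cells, at 3.67, 3.86 and 3.65 against 6.10, 6.29, 6.23 and 6.05. The stratified keratins Krt5 (-0.19), Krt14 (0.93) and Krt17 (0.34) were not called. Among 10 other filament genes, Vim, the mesenchymal filament (-6.04), Des and Nes (-1.64) were lower and the lamin Lmnb1 (1.75) was higher, a call that was lost without epithelial array 2, without moderation or without fibroblastic arrays 2 and 4 together.

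Tight junction genes were higher as a group with 1 large exception. Of 22 measured, 12 were higher and 1 lower in the epithelial line, with a median difference of 2.61. Ocln, the strand protein occludin, was at 10.23, 10.59 and 10.98 in the epithelial arrays and 4.23, 3.27, 3.56 and 4.20 in the fibroblastic arrays, a difference of 6.78 ± 0.29. The barrier claudins Cldn4, Cldn3, Cldn7 and Cldn1 differed by 6.08, 5.45, 4.72 and 4.06, the tricellular junction gene Lsr by 6.0, the adhesion molecule F11r by 5.76, and the scaffolds Cgn and Tjp3 by 4.27 and 3.61. The widely expressed scaffold Tjp1 differed by 0.30 (95% interval -0.19 to 0.79). Jam3, a junctional adhesion molecule also found in mesenchymal cells, ran the other way, at 4.64, 4.86 and 4.79 in the epithelial and 10.03, 10.21, 10.05 and 10.30 in the fibroblastic arrays (difference -5.39, adjusted p = 1.10e-07).

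Desmosomes, the spot junctions that anchor keratins, were likewise an epithelial group. Of 17 desmosome and hemidesmosome genes, 11 were higher and 1 lower. The desmosomal cadherins Dsc2 and Dsg2 differed by 6.81 and 6.65, the plakins Ppl, Dsp and Evpl by 6.53, 3.65 and 2.71, and the plakophilin Pkp3 by 3.26. Itgb4 and Itga6, the subunits of the hemidesmosome integrin, differed by 5.35 and 2.47. Dst, a plakin that also crosslinks the cytoskeleton outside hemidesmosomes, was lower in the epithelial line, at 8.68, 8.33 and 7.34 against 11.30, 12.04, 11.24 and 11.91. Ppl was at 3.99, 6.0, 3.96 and 5.59 in the fibroblastic arrays, with arrays 2 and 4 above arrays 1 and 3, the reverse of Krt7.

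Cadherins were divided between the lines, and Cdh2 was not among those called. Cdh1, the epithelial cadherin, differed by 8.68 and the mesenchymal cadherin Cdh11 by -8.12, the largest differences of the 16 measured in each direction. Of the 3 probe sets of Cdh11, 1 had a difference of the opposite sign. Cdh13, a cadherin without a cytoplasmic tail, and the protocadherin Pcdh18 were also lower (-4.40 and -5.48). Cdh2, the neural cadherin, was at 7.15, 7.24 and 6.92 in the epithelial and 7.11, 6.66, 6.47 and 6.54 in the fibroblastic arrays, and its groups overlapped (difference 0.41, 95% interval -0.03 to 0.85). This is the value of its brightest probe set, and the mean over its probe sets was lower in the epithelial line (-1.80, adjusted p = 1.30e-04). In all, 2 cadherins (12.5%) were higher and 4 (25%) lower, against 20.9% and 16.6% of all genes. The higher count was 1 without fibroblastic array 2, 3 or 4 or without arrays 2 and 4. The other cadherin called higher, Cdh17 of intestinal epithelium, was at 6.70, 12.28 and 6.93 in the epithelial arrays, with array 2 highest, and its call was lost without fibroblastic array 1, 2, 3 or 4, without moderation, without fibroblastic arrays 2 and 4 together or without fibroblastic arrays 1 and 3 together.

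Genes of apical polarity and apical trafficking were for the most part higher in the epithelial line. Of 31 measured, 22 were higher and 1 lower. Beside Mal2, the related raft protein Mal (5.56), the recycling GTPase Rab25 (5.13), the motors Myo5c (4.37) and Myo5b (3.55) and the adaptor subunit Ap1m2 (3.80) were higher. So were the polarity genes Pard6b (5.60), Llgl2 (3.85), Prkcz (3.24) and Crb3 (2.87), and the microvillus linker Ezr (3.18). The general forms differed less: Llgl1 and the scaffold Scrib were higher by 1.06 and 0.90, and Pard3, at 0.43, was not called. The scaffold Dlg1 was lower (-0.97), a call lost for the mean of its probe sets.

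Zeb and Snail proteins are known to bind an E-box of the letters CACCTG, or CAGGTG on the other strand, and junction genes are known to carry it near their starts. The 250 bases before the start of each gene were searched for these letters on both strands in the RefSeq promoter table (build GRCr8). Of all 33469 promoters 15.9% held at least 1 E-box, and of those of genes measured here 15.8%. The share was 21.0% of 2457 promoters of genes called higher in the epithelial line and 11.5% of 1923 of genes called lower, with a median GC content of 59.6% and 61.6%. Among the groups, E-boxes stood in 12 of 24 polarity, 7 of 19 tight junction, 5 of 11 desmosome and 4 of 8 keratin promoters. They stood in 8 of 22 promoters of epithelial transcription and splicing factors. On the fibroblastic side, they stood in 2 of 18 promoters of contractile fibroblast (myCAF) genes and 1 of 27 focal adhesion promoters. The letters AACCNGGTT, which grainyhead-like factors are known to bind, stood on either strand in 0.296% of all promoters and overlapped no E-box. They stood in 0.366% of promoters of genes called higher and 0.364% of those called lower. A match of letters is a description and shows no binding.

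Of 30 genes looked up by their roles, 21 had an entry in the promoter table, and the 6 that held 2 or more E-boxes are shown. All 6 were called higher in the epithelial line. Most of the 30 were chosen as epithelial genes, so this direction follows from the choice and is not a result. Capitals mark the E-box, in either orientation. Each sequence runs 5′ to 3′ toward the gene and ends 1 base before the start. Cldn7 lies at chr10:55188420-55188669 on the plus strand, Ocln at chr2:33441199-33441448 on the minus strand, Crb3 at chr9:1987504-1987753 on the plus strand, Rab25 at chr2:176304222-176304471 on the minus strand, Lsr at chr1:95329355-95329604 on the minus strand and Ap1m2 at chr8:28132643-28132892 on the minus strand of GRCr8.
Cldn7: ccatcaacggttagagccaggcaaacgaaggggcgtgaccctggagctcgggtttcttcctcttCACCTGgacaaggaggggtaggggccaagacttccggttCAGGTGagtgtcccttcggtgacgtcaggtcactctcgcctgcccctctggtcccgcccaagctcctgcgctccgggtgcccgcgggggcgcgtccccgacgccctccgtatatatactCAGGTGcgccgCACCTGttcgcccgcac
Ocln: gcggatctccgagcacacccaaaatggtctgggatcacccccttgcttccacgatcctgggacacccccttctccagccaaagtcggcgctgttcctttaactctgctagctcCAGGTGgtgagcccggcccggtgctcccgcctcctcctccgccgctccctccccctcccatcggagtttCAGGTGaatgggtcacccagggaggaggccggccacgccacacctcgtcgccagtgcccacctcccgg
Crb3: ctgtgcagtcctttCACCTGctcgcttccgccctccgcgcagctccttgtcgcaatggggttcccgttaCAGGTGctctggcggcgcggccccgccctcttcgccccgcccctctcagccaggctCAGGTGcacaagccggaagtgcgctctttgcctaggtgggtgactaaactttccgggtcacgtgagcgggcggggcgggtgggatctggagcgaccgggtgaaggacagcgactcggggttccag
Rab25: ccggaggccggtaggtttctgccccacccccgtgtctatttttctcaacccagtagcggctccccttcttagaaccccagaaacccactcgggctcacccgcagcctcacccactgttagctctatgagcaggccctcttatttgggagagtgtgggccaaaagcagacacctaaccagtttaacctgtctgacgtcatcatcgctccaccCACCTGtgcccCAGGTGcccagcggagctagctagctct
Lsr: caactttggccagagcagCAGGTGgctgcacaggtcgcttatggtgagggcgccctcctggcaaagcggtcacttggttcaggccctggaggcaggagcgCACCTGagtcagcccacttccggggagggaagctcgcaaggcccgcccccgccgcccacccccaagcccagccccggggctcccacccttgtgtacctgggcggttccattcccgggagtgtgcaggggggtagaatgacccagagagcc
Ap1m2: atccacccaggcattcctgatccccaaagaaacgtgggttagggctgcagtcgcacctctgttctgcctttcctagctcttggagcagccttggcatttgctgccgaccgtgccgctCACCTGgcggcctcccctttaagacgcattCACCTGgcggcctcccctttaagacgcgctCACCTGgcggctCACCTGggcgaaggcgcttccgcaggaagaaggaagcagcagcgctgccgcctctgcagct
The Cldn7 promoter held 4 E-boxes, whose first bases lay 186, 147, 28 and 17 bases before the start, and Rab25 held a pair 39 and 28 bases before it. In Ap1m2 all 4 lay between 133 and 61 bases before the start. Ocln and Lsr held 2 each and Crb3 3. Cldn7 itself was at 7.96, 10.52 and 8.27 in the epithelial arrays, with array 2 highest, and at 4.26, 3.98, 4.25 and 4.28 in the fibroblastic arrays.

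**Figure D2:**
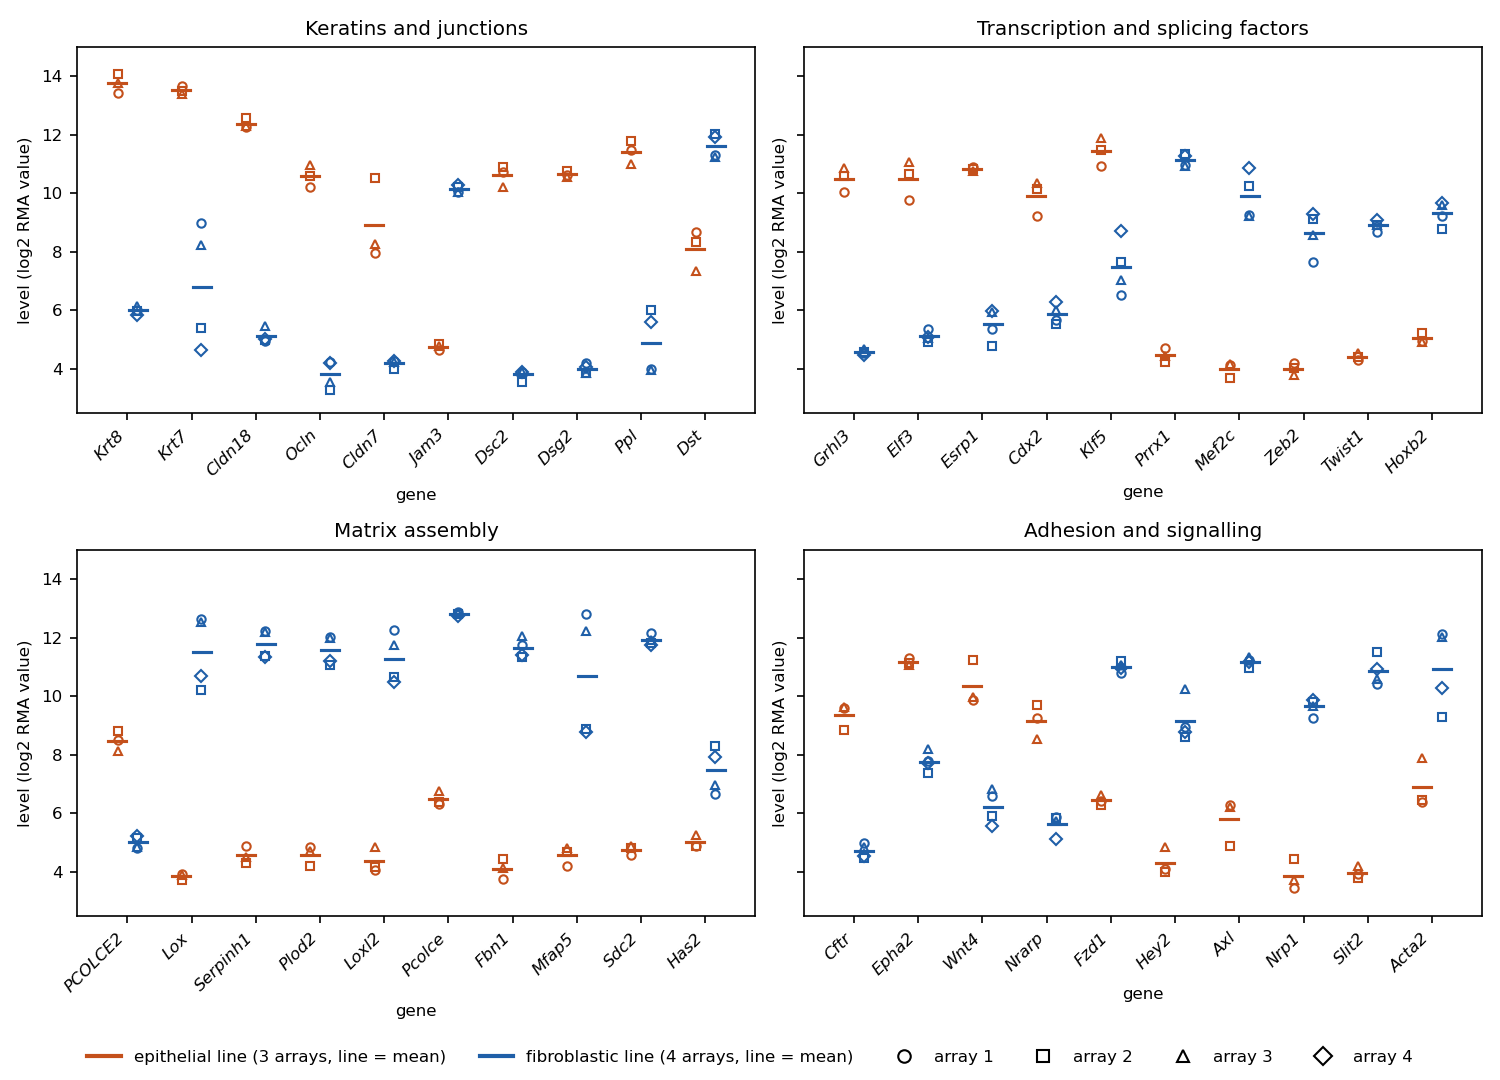
Level of each of 40 genes (log2 RMA value, vertical axis) in every array, epithelial in orange and fibroblastic in blue, with the symbol giving the array number and a horizontal line the mean of the line. The genes were chosen by hand for the plot, and the groups do not overlap for any gene drawn. Of all genes, 45.3% had groups that do not overlap. Fibroblastic arrays 1 and 3 part from arrays 2 and 4 for Krt7, Lox, Mfap5 and Acta2.

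Transcription factors divided along the same line. Of 32 epithelial transcription and splicing factors, 14 were higher and 2 lower in the epithelial line. The grainyhead-like factor Grhl3 was at 10.04, 10.58 and 10.87 against 4.53, 4.57, 4.68 and 4.49, and its relative Grhl1 differed by 3.08. The splicing regulator Esrp1 was at 10.89, 10.84 and 10.76 against 5.38, 4.80, 5.94 and 5.99. The Ets factors Elf3 and Ehf differed by 5.38 and 3.39, and Klf5 by 3.96. Factors of gut and pancreas were in the group: Cdx2, of intestine, differed by 4.03, Pdx1, of pancreas and duodenum, by 3.47, and Foxa2, of foregut, by 2.12. Hnf4a, the hepatocyte and gut factor, and Klf4 were not called (1.29 and 1.27), and Gata6 differed by 0.21.

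Of 50 mesenchymal transcription factors, 29 were lower and 3 higher in the epithelial line, with a median difference of -1.69. Prrx1, a homeobox factor of limb and stromal mesenchyme, was at 4.73, 4.23 and 4.44 in the epithelial and 10.96, 11.34, 10.94 and 11.29 in the fibroblastic arrays, a difference of -6.66 ± 0.18. Mef2c, a muscle and mesenchyme factor, differed by -5.89 and Barx1, of stomach mesenchyme, by -5.19. The repressors of the epithelial state differed by -4.66 for Zeb2, -4.49 for Twist1, -3.06 for Snai1 and -2.63 for Zeb1. For Zeb2 the fibroblastic arrays were at 7.65, 9.13, 8.57 and 9.28, with array 1 lowest, and the epithelial arrays at 4.20, 4.03 and 3.78. Msx1 and Nr2f2 were not called (-0.30 and -0.07). Nkx2-3, a homeobox factor of gut and spleen mesenchyme, went the other way, at 7.63, 7.96 and 8.06 against 5.66, 5.80, 5.59 and 5.15.

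Homeobox genes of the Hox clusters, which mark position along the body axis, went both ways. Hoxc4, Hoxc5, Hoxc8 and Hoxc9 were higher in the epithelial line, by 3.10, 2.51, 2.92 and 3.0. Hoxc8 was at 7.76, 7.60 and 7.59 against 5.28, 4.78, 4.52 and 4.31. Hoxb2, Hoxd8 and Hoxb4 were lower, with differences of -4.27, -3.80 and -2.62. Hoxb2 was at 4.96, 5.24 and 4.93 against 9.22, 8.79, 9.60 and 9.66, and the groups did not overlap for Hoxc8 or Hoxb2. Of 22 Hox genes measured, 6 (27.3%) were higher and 3 (13.6%) lower, against 20.9% and 16.6% of all genes. The lower count was 5 without epithelial array 3 or without fibroblastic arrays 1 and 3. All 4 Hoxc genes measured were higher, and the other two were Hoxb13 (1.26) and Hoxa7 (0.48). The call of Hoxa7 was lost without epithelial array 2 or 3, without fibroblastic array 1, 3 or 4, with a trend and robust moderation, without fibroblastic arrays 2 and 4 together or without fibroblastic arrays 1 and 3 together.

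**Figure D3:**
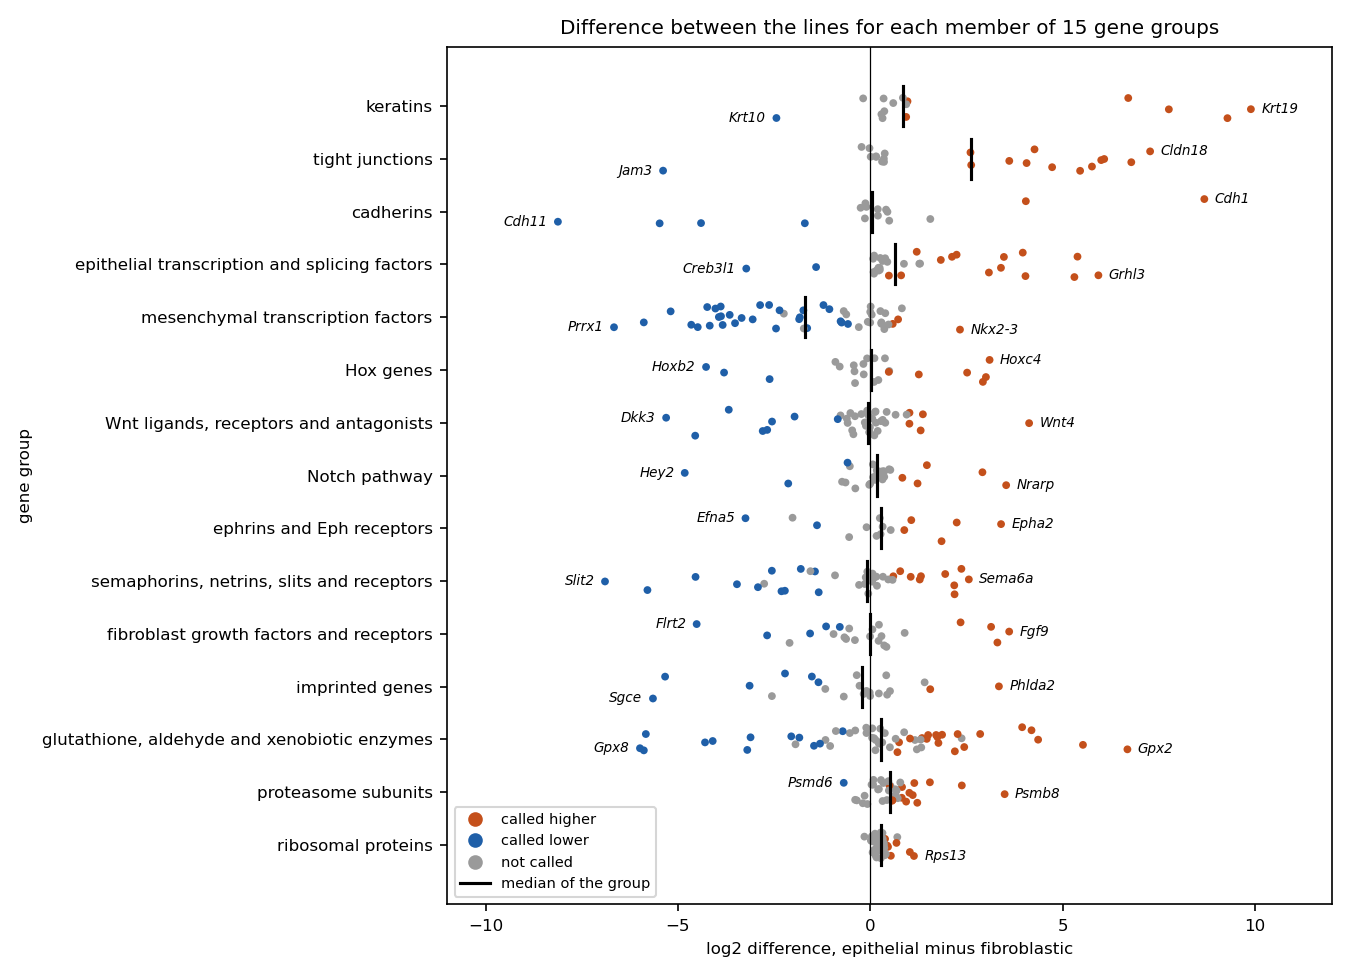
Log2 difference (epithelial minus fibroblastic, horizontal axis) of each measured gene of 15 gene groups (vertical axis), coloured by call, with a bar at the median of the group and the called gene farthest out on each side named. Tight junction genes have a median of 2.61 and mesenchymal transcription factors of -1.69, whereas Wnt, Notch and Hox genes spread to both sides of 0.

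The machinery that folds, crosslinks and exports collagen was lower in the epithelial line almost throughout. Of 28 genes, 25 were lower and 1 higher, with a median difference of -2.85. The order of members was wide. The crosslinking oxidase Lox was at 3.92, 3.72 and 3.90 against 12.65, 10.23, 12.54 and 10.69, a difference of -7.68 ± 0.60, and its relatives Loxl2, Loxl1 and Loxl3 differed by -6.92, -6.85 and -5.57. Serpinh1, the collagen chaperone, differed by -7.21, and Plod2, which hydroxylates lysines in the telopeptides of collagen, by -6.99. Others differed less, with the chaperone subunit P4hb at -1.04, the cyclophilin Ppib at -0.98 and the lysyl hydroxylase Plod3 at -1.45. Lox in the fibroblastic line was higher in arrays 1 and 3 than in arrays 2 and 4.

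The procollagen enhancers split. Pcolce, which speeds cleavage of the procollagen C-propeptide by Bmp1, was at 6.32, 6.38 and 6.76 in the epithelial and 12.89, 12.79, 12.84 and 12.73 in the fibroblastic arrays. PCOLCE2, its paralogue, was at 8.49, 8.82 and 8.13 against 4.81, 5.17, 4.86 and 5.21 and so was higher in the epithelial line (3.47, adjusted p = 6.11e-06). Bmp1 itself was lower (-2.51). Sparc, a collagen-binding protein, differed by -7.37.

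Elastic fibre and microfibril genes leaned the same way, with 13 of 21 lower and 1 higher. Fbn1, the main microfibril protein, was at 3.75, 4.44 and 4.13 against 11.75, 11.36, 12.05 and 11.41. Mfap5 was at 4.19, 4.69 and 4.82 against 12.82, 8.88, 12.24 and 8.76, with fibroblastic arrays 1 and 3 far above arrays 2 and 4. The elastin assembly genes Fbln5 and Efemp2 differed by -5.09 and -4.16, Ltbp2, a microfibril-associated protein, by -4.57, and elastin itself, Eln, by -1.57, where the call was lost without epithelial array 1, 2 or 3, without fibroblastic array 3 or without moderation. Fbln1 was the member higher in the epithelial line (1.36), and Efemp1 and Mfap2 were not called (0.31 and 0.26).

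Heparan sulfate carriers went both ways. Sdc2, a mesenchymal syndecan, was at 4.57, 4.83 and 4.87 against 12.18, 11.82, 11.92 and 11.76, whereas Sdc1, the syndecan of epithelia, was higher in the epithelial line (2.58), as was Sdc4 (1.54). The glypicans Gpc1, Gpc6, Gpc3 and Gpc4 were all lower, with differences of -5.56, -5.43, -5.14 and -2.34. Has2, which makes hyaluronan, differed by -2.44, and Tnfaip6, which links proteins to hyaluronan, by -4.49, while the hyaluronan receptor Cd44 differed by -0.30 and was not called. Of 30 genes of this group, 5 were higher and 13 lower. The higher count was 3 without epithelial array 2, without fibroblastic array 4 or without fibroblastic arrays 2 and 4 together, and 2 without epithelial array 3.

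Genes of caveolae and focal adhesions, the sites where cells grip matrix, were lower in the epithelial line at 17 of 34 and higher at 3. Nexn, an actin filament protein, was at 4.61, 4.96 and 4.64 against 11.29, 10.10, 11.03 and 10.89. Fhl1, the tensin Tns1, the filamin Flnc and the adaptor Lims2 differed by -5.12, -4.55, -4.52 and -3.88. The core adhesion genes Vcl, Zyx and Actn1 differed by -2.44, -2.05 and -2.04, while paxillin, Pxn, was higher (1.80), as was the caveola coat gene Cavin2 (2.88). Cav1, the main caveolin, was at 11.50, 11.74 and 11.40 against 11.76, 11.42, 11.62 and 11.43, and Ptk2, the focal adhesion kinase, differed by 0.12 (95% interval -0.49 to 0.73).

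Targets of the mechanosensitive factors Yap and Taz were lower at 13 of 24. They included Axl, a receptor kinase, at 6.30, 4.89 and 6.22 against 11.24, 10.98, 11.33 and 11.17, Nt5e (-4.04), Igfbp3 (-4.56), Ccn1 (-3.02) and Ccn2 (-1.98). The tissue factor gene F3 was higher (3.15). In all, 3 members were higher, against 1 without epithelial array 1 and 5 without fibroblastic arrays 1 and 3. Ankrd1, a target often used to read this pathway, differed by -1.03 and was not called. The fibroblastic arrays were at 9.91, 4.44, 10.45 and 5.20, high in arrays 1 and 3 and low in arrays 2 and 4. Its difference was -3.71 (adjusted p = 0.00165) with arrays 2 and 4 left out and 1.65 (adjusted p = 0.0383) with arrays 1 and 3 left out, so its direction turned on the choice of arrays.

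Fibroblasts of tumours are often described as contractile (myCAF) or inflammatory (iCAF). Of 25 myCAF genes, 17 were lower and 2 higher in the epithelial line. Tagln and Cnn1, of the contractile apparatus, differed by -7.18 and -6.0, the myosin light chain Myl9 by -6.05, the ligand subunit Inhba by -7.44 and the matrix genes Tnc and Col12a1 by -7.84 and -5.05. Crip1, a small LIM protein, was the reverse, at 13.09, 13.62 and 13.14 against 10.72, 8.47, 9.12 and 8.08, and Hopx was also higher (1.36). Tpm1, which has several transcripts, differed by -0.26 with overlapping groups. Of 22 iCAF genes, 4 (18.2%) were higher and 10 (45.5%) lower, against 20.9% and 16.6% of all genes. The chemokine Cxcl2 (5.82) and the complement gene C3 (4.19) were higher in the epithelial line. The chemokines Ccl7, Ccl2 and Cxcl12 and the cytokine Il6 were higher in the fibroblastic line, with differences of -4.59, -4.28, -4.13 and -2.89.

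Genes of bile duct secretion were higher in the epithelial line in part. Of 43 channels, transporters and receptors, 17 were higher and 2 lower. Cftr, the chloride channel of duct cells, was at 9.59, 8.84 and 9.65 against 5.0, 4.47, 4.86 and 4.53, a difference of 4.64 ± 0.24. The potassium channels Kcnq1, Kcnn4 and Kcne3 differed by 4.43, 3.43 and 3.21, the bicarbonate cotransporter Slc4a4 by 3.68, the carbonic anhydrase Car2 by 2.88 and the nucleotide receptors P2ry1 and P2ry2 by 3.03 and 2.69. Other defining genes of the duct did not pass: the secretin receptor Sctr was at 4.18, 4.49 and 4.31 against 4.39, 3.99, 4.12 and 4.06, and the chloride-bicarbonate exchanger Slc4a2 differed by -0.38. Among water channels Aqp3 (3.03) and Aqp5 (1.68) were higher, whereas Aqp1, the water channel of normal duct cells, was higher in the fibroblastic line, at 5.07, 5.55 and 5.57 against 9.96, 10.60, 8.96 and 10.06 (adjusted p = 3.69e-05).

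Over the solute carriers as a whole the shares were near those of all genes. Of 294 measured, 55 were higher and 56 lower. The urea transporter Slc14a1 (5.40), the amino acid transporter Slc6a14 (5.10) and the choline transporter-like Slc44a4 (3.93) were the farthest out on the epithelial side. On the fibroblastic side were the sodium-calcium exchangers Slc8a1 (-6.03) and Slc24a3 (-4.94), the glucose transporter Slc2a3 (-4.95), the myo-inositol transporter Slc2a13 (-4.90) and the zinc transporter Slc39a14 (-4.19).

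Of 41 Wnt pathway genes, 5 (12.2%) were higher and 8 (19.5%) lower, against 20.9% and 16.6% of all genes. The ligand Wnt4 was at 9.86, 11.24 and 9.96 against 6.59, 5.92, 6.84 and 5.55, and the receptors Fzd6 (1.31) and Lrp5 (1.37) were also higher. The receptors Fzd1, Fzd8 and Fzd2 were lower, with differences of -4.55, -2.68 and -2.56, as were the secreted antagonists Dkk3 (-5.31) and Sfrp4 (-3.68). Axin2, a common readout of the pathway, differed by 0.28 (95% interval -0.56 to 1.11).

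In the Notch pathway the feedback regulator Nrarp was at 9.27, 9.70 and 8.53 against 5.87, 5.83, 5.74 and 5.12, and the ligands Jag2 and Dll1 and the receptor Notch1 were higher in the epithelial line (2.91, 1.23 and 1.47). The call of Notch1 was lost without epithelial array 1 or without moderation. Hey2, a repressor induced by Notch, was at 4.10, 4.0 and 4.86 against 8.96, 8.61, 10.24 and 8.77 and so lower. The ligand Jag1 and the target Hes1 differed by -0.03 and 0.35, and neither was called. In all, 5 of 27 genes (18.5%) were higher and 3 (11.1%) lower, against 20.9% and 16.6% of all genes. The higher count was 3 without epithelial array 1, and the lower count was 1 without epithelial array 1 or 2 and 6 without fibroblastic arrays 1 and 3. In the hedgehog pathway 2 of 12 genes were higher and 3 lower, with the co-receptor Boc at -4.71 and the effector Gli2 at -1.74.

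Guidance genes were called in both directions. The ephrin receptor Epha2 was at 11.30, 11.15 and 11.06 against 7.78, 7.38, 8.20 and 7.72, and of 15 ephrins and Eph receptors 5 were higher and 2 lower, the latter led by Efna5 (-3.25). Of 39 semaphorins, netrins, slits and their receptors, 10 (25.6%) were higher and 11 (28.2%) lower, against 20.9% and 16.6% of all genes. Slit2 was at 3.91, 3.79 and 4.20 against 10.41, 11.52, 10.60 and 10.92 and the receptor Nrp1 at 3.43, 4.44 and 3.71 against 9.27, 9.80, 9.67 and 9.89. Semaphorins went both ways: the transmembrane Sema6a, Sema4f and Sema4a were higher by 2.56, 2.37 and 1.95 and the secreted Sema3c by 2.18, whereas the secreted Sema3d (-3.47) and Sema3e (-2.92) were lower. Sema4d (0.58) and Sema3a (-0.08) were not called. The ligand Ntn1 was higher in the epithelial line (2.19) and its receptors Unc5b (-4.54) and Unc5c (-2.56) lower.

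Of 23 fibroblast growth factor genes, 4 (17.4%) were higher and 5 (21.7%) lower, against 20.9% and 16.6% of all genes. The lower count was 8 with fibroblastic arrays 2 and 4 left out. The ligand Fgf9 (3.61) was higher in the epithelial line and the receptor Fgfr1 lower (-2.68). Flrt3 and Flrt2, membrane proteins that bind these receptors, ran in opposite directions (3.30 and -4.52). Fgfr2 was at 9.26, 8.71 and 10.04 against 9.13, 7.62, 8.96 and 8.07 and was not called.

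To describe which line held the ligand and which the receptor, 76 measured ligand and receptor pairs were read together, from a list of 93. Over all genes 20.9% were called higher and 16.6% lower, and the counts of pairs were not tested against these shares. The ligand was lower in the epithelial line and the receptor higher in 3: the neuregulin Nrg1 and its receptor Erbb3, Gas6 and the receptor kinase Tyro3, and Inhba and the activin receptor Acvr2a. Nrg1 was at 5.22, 4.57 and 4.73 against 8.17, 7.83, 7.81 and 7.87 (-3.08), although 2 other probe sets of this gene had a difference of the opposite sign. Erbb3 was at 6.21, 6.51 and 7.03 against 5.59, 5.50, 5.65 and 5.64 (0.99). The receptor differences were small beside those of the ligands, 0.63 for Tyro3 and 0.59 for Acvr2a against -3.19 and -7.44. The call of Tyro3 was lost without fibroblastic arrays 2 and 4 together, and that of Acvr2a without epithelial array 2 or 3, without fibroblastic array 1, 2 or 3, after a further quantile normalization or without fibroblastic arrays 1 and 3 together.

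The reverse, a ligand higher and a receptor lower in the epithelial line, was seen in 4 pairs. Il33, a cytokine released from damaged barrier cells, was at 13.52, 13.09 and 13.44 in the epithelial and 6.40, 5.65, 7.0 and 5.73 in the fibroblastic arrays. Its receptor Il1rl1 was at 4.95, 4.18 and 4.65 against 11.90, 6.24, 11.77 and 7.10, high in fibroblastic arrays 1 and 3. The call of the receptor (adjusted p = 0.0340) was lost without epithelial array 1, 2 or 3, without fibroblastic array 1 or 3, for the mean of its probe sets or without moderation. Il1a (6.99) and its receptor Il1r1 (-0.83), and Ntn1 and Unc5b, were the next, with Sema3c (2.18) and Nrp2 (-2.31) the last. The call of Il1r1 was lost without epithelial array 2 or 3, without fibroblastic array 2 or 4, in a fit of all 13 arrays, for the mean of its probe sets, without moderation or without fibroblastic arrays 2 and 4 together. The call of Sema3c was lost without epithelial array 1, 2 or 3, without fibroblastic array 2 or 4 or without moderation.

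Both genes were higher in 3 pairs (Wnt4 and Fzd6, Dll1 and Notch1, Efna1 and Epha2) and both lower in 8. Efna1, an ephrin, was higher by 2.24, a call that was lost without epithelial array 1 or 2 or without moderation. The pairs with both genes lower held collagen and fibronectin with their receptors: Col1a1 (-7.98) with Ddr2 (-6.32) and Itga11 (-5.39), Fn1 (-9.27) with Itga5 (-2.02), and Postn (-10.18) with Itgav (-2.93), and also Gas6 with Axl. Col1a1 and Fgfr1 each stood in more than 1 of these pairs. The epidermal growth factor ligands Areg (4.05), Ereg (4.30) and Btc (0.79) were higher. Tgfa was higher by 2.46, a call that was lost without epithelial array 1, 2 or 3, without fibroblastic array 2 or 4, without moderation or without fibroblastic arrays 2 and 4 together, and Hbegf (1.65) and Egf (-0.70) were not called. The receptor Egfr was at 8.51, 8.35 and 8.04 against 7.25, 8.33, 7.85 and 8.37 and was not called. The co-receptor Erbb2 was higher by 2.01. Cxcl12 was lower with its receptor Cxcr4 at -0.09 (95% interval -0.77 to 0.58). Hgf, the hepatocyte growth factor, was at 4.42, 4.32 and 4.73 against 4.54, 5.67, 4.57 and 5.59 and was not called, and its receptor Met was higher by 0.84, a call that was lost without epithelial array 1 or 3, without fibroblastic array 2 or 4, without moderation or without fibroblastic arrays 2 and 4 together. In 20 pairs neither gene was called.

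**Figure D4:**
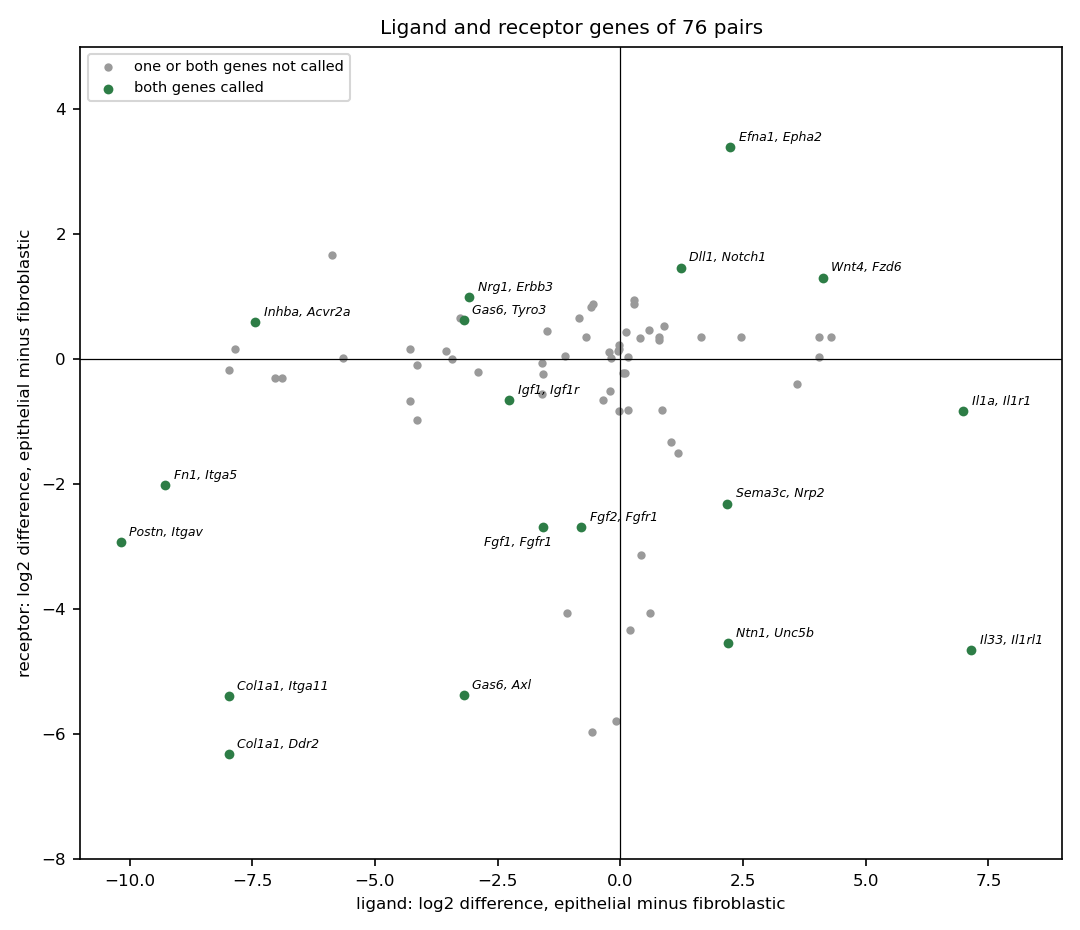
Log2 difference (epithelial minus fibroblastic) of the ligand (horizontal axis) and of the receptor (vertical axis) for 76 pairs, with the pairs in which both genes were called in green and named as ligand, receptor. Il33 with Il1rl1 stands lowest on the right, and Inhba with Acvr2a and Nrg1 with Erbb3 stand at the upper left.

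Enzymes that handle glutathione, aldehydes and foreign compounds formed opposite sets within 1 family. The gut-type glutathione peroxidase Gpx2 was at 11.74, 10.42 and 11.25 against 4.63, 4.46, 4.44 and 4.30 (6.68 ± 0.29), whereas the secreted Gpx3 and the reticulum forms Gpx7 and Gpx8 were lower in the epithelial line (-4.30, -5.89 and -5.99). Gpx8 was at 7.13, 4.72 and 5.40 against 11.86, 11.37, 11.96 and 11.75. Gpx4, which reduces lipid peroxides, differed by 0.26 and was not called. Aldh3a1, a corneal and stomach aldehyde dehydrogenase (5.53), the microsomal transferase Mgst1 (4.36), Gstk1 (4.19) and the glutathione reductase Gsr (2.85) were higher. Cyp1b1 (-5.84), Aldh1l2 (-4.10) and Hmox1, which breaks down haem (-3.20), were lower. In all, 19 of 59 (32.2%) were higher and 12 (20.3%) lower, against 20.9% and 16.6% of all genes.

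Growth control genes differed at single members. The transcription factor Myc was higher in the epithelial line, at 10.71, 10.93 and 9.85 against 7.50, 7.49, 8.19 and 7.59. Ccnd1, cyclin D1, was higher by 1.31, a call that was lost without epithelial array 1, 2 or 3, without fibroblastic array 1 or without moderation. The inhibitor gene Cdkn2a was lower, at 4.89, 4.76 and 4.60 against 7.45, 7.83, 7.37 and 7.14 (adjusted p = 1.70e-05), as was Cdkn2b, its neighbour (-1.20). Cdkn1a, the inhibitor p21, was not called (-0.52). Of 38 genes of this group, 5 (13.2%) were higher and 6 (15.8%) lower, against 20.9% and 16.6% of all genes. The higher count was 3 without any single epithelial array or without fibroblastic array 1. Among 33 apoptosis regulators 11 were higher and 0 lower by limma, with 4 lower at an unadjusted p under 0.05. The lower count was 1 without fibroblastic array 1 or 3, and 2 without arrays 1 and 3 or without arrays 2 and 4. The higher ones held both promoters and inhibitors of cell death: Bik (3.87), Casp8 (1.64) and Bid (1.31), but also Cflar (3.08), Birc3 (1.80) and Bcl2l1 (1.29).

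Of 22 imprinted genes, which are expressed from 1 parental copy, 2 (9.1%) were higher and 6 (27.3%) lower. The shares over all genes were 20.9% and 16.6%. Plagl1, a zinc finger factor, was at 4.41, 4.55 and 4.19 against 9.10, 10.42, 9.58 and 9.77, and Sgce, a sarcoglycan, at 4.46, 4.54 and 4.67 against 10.16, 10.54, 9.97 and 10.16. The receptor Igf2r differed by -3.14, while its ligand Igf2 differed by 0.41 and H19 by -0.10, neither called. Phlda2 was the largest on the epithelial side (3.34).

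The genes that every cell uses were close between the lines. Of 44 ribosomal proteins, 7 were higher and 0 lower by limma (0 at an unadjusted p under 0.05), with a median difference of 0.26. The higher count was 15 at an unadjusted p under 0.05 and 18 without moderation. It dropped to 3 without epithelial array 1 or 3, or without fibroblastic array 1, 2 or 3 or arrays 1 and 3 together, and to 4 without epithelial array 2. At 39 of the 44 the interval lay inside 2-fold, among them Rpl37a (-0.14 to 0.42), Rpl27a (-0.22 to 0.35), Rps3a (-0.02 to 0.55), Rps29 (-0.21 to 0.36) and Rps15a (-0.20 to 0.38). These are among the 12 narrowest intervals of all listed genes. The others were Epha5, Clec14a, Gnas, Aldh1b1, Meox1, Slc10a1 and Psma6. Gnas, a signalling G protein, was at 13.10, 12.96 and 13.02 against 13.08, 13.07, 12.98 and 13.05, and the proteasome gene Psma6 differed by 0.56.

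In the fit of all 7 arrays, the respiratory chain and the proteasome leaned toward the epithelial line by small amounts. Over all genes, 20.9% were called higher and 16.6% lower. Of 86 respiratory chain genes 24 (27.9%) were higher and 2 (2.3%) lower, with a median of 0.33. The lower count was 1 without epithelial array 2 or 3, without fibroblastic array 3 or without arrays 1 and 3. With fibroblastic arrays 2 and 4 left out, 11 respiratory chain genes were higher, in a fit that called 2360 of all 14217 genes higher. The muscle-type subunits diverged: Cox7a1 was at 7.06, 8.72 and 7.42 against 6.48, 5.61, 5.88 and 5.51, a higher call that was lost without fibroblastic arrays 2 and 4 together, and Cox6a2 at 4.85, 5.27 and 4.99 against 9.85, 9.43, 9.23 and 9.12. Of 36 proteasome subunits 13 (36.1%) were higher and 1 (2.8%) lower, with a median of 0.51. The lower count was 2 without epithelial array 1 and 0 without fibroblastic arrays 1 and 3. With fibroblastic arrays 1 and 3 left out, 20 subunits were higher. Psmb8, a catalytic subunit of the immunoproteasome, stood apart at 9.53, 9.41 and 9.28 against 5.67, 6.19, 5.42 and 6.38, whereas Psmb5, the standard subunit it replaces, differed by 1.01.

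Variation among arrays of 1 line was wide at some genes. A range of at least 2 log2 units was found at 263 genes in the epithelial and 577 in the fibroblastic arrays, which have 1 array more. The widest in the epithelial line was Car1, carbonic anhydrase 1, at 4.36, 13.54 and 11.83, followed by Ly6al (4.84, 12.79 and 8.25) and the fatty acid carrier Fabp4 (5.78, 13.47 and 6.82). Car1 was called higher, but its epithelial array 1 lay among the fibroblastic arrays, and the call was lost without epithelial array 2 or 3, without fibroblastic array 1, 2, 3 or 4, without moderation, without fibroblastic arrays 2 and 4 together or without fibroblastic arrays 1 and 3 together. Gpr15lg, Upk3a, Pla2g2a, Cd69, Cdh17, Cxcl11, Dmbt1, Agr2 and Fos followed, with ranges of 5.20 to 6.0. Of the 263 genes, epithelial array 1 was lowest at 159 and array 2 highest at 155.

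In the fibroblastic line most genes with such a range split by the pairs of arrays. Of the 577 genes, arrays 2 and 4 were both below arrays 1 and 3 at 297 and both above at 252. The neuronal pentraxin Nptx1 was at 4.12, 10.74, 4.16 and 9.49, the growth factor Ptn at 3.58, 9.52, 5.69 and 9.91 and the orphan receptor Nr4a3 at 7.66, 11.49, 5.36 and 11.67. Col10a1 (10.56, 4.57, 5.61 and 4.51) and Tgfbi (6.42, 11.99, 7.38 and 11.99), both matrix genes, and Cxcl13 (5.19, 10.67, 4.74 and 9.81), a chemokine, also had wide ranges, with Col10a1 high in array 1 alone. The remaining leaders were Ankrd1, Wfdc1, Il1rl1, Islr, Fndc1 and Anxa3, with ranges of 5.40 to 6.01. Actin 3' to 5' differences were higher in arrays 2 and 4 than in arrays 1 and 3, whereas those of Gapdh overlapped, and the part of RNA quality in the spread was not tested.

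**Figure D5:**
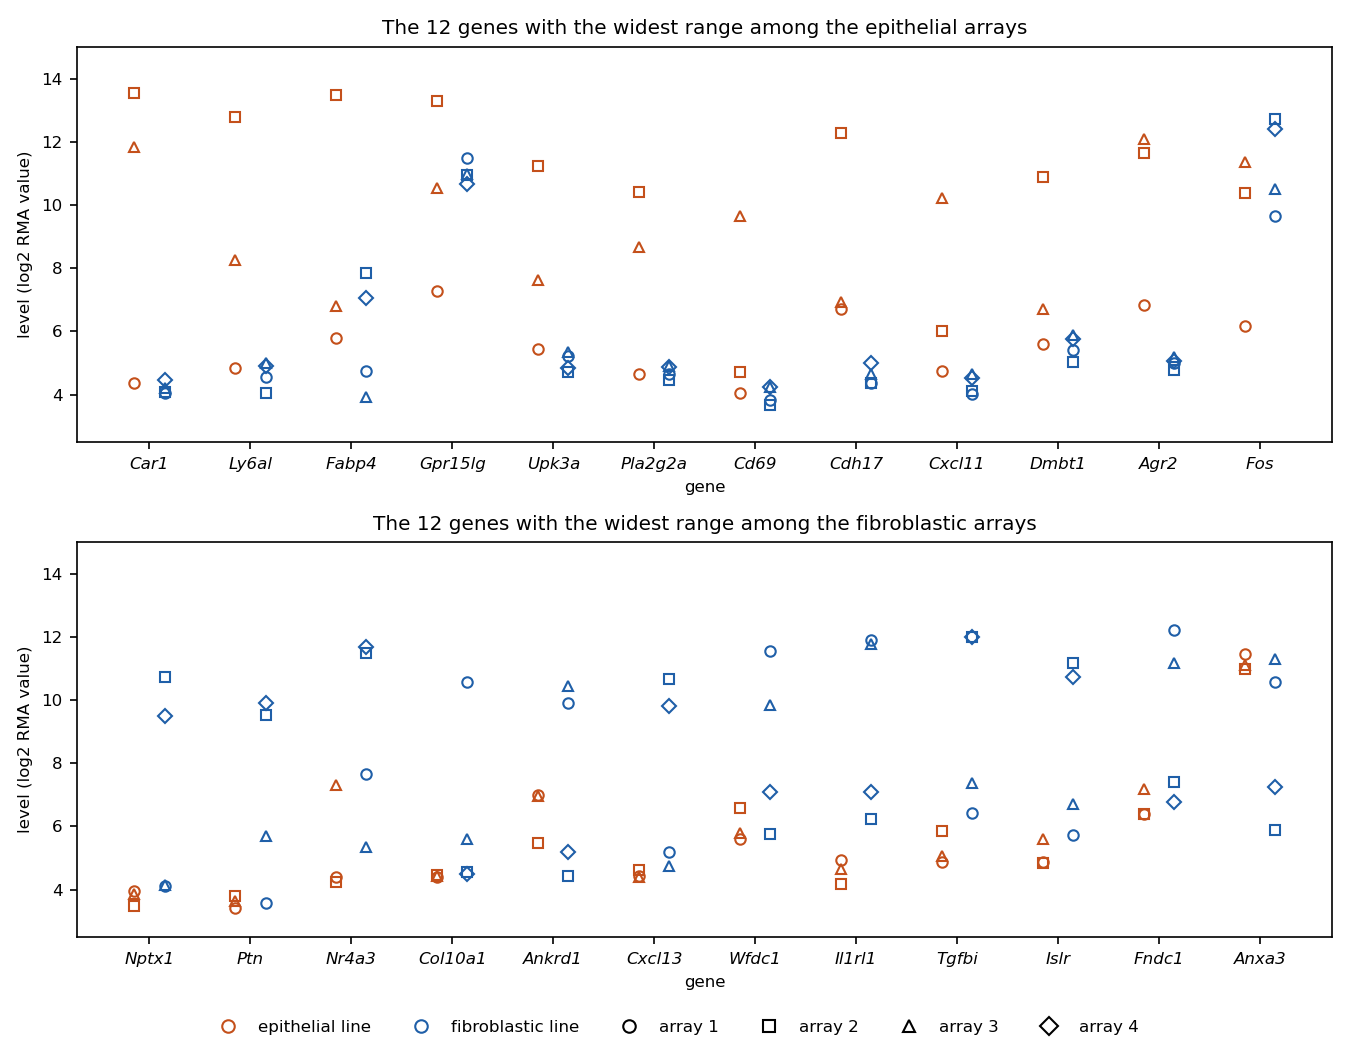
Level (log2 RMA value, vertical axis) in every array of the 12 genes with the widest range among the epithelial arrays (top) and among the fibroblastic arrays (bottom), epithelial in orange and fibroblastic in blue, with the symbol giving the array number. Epithelial array 1 is at 4.36 for Car1 while array 2 is at 13.54, and fibroblastic arrays 1 and 3 are both above or both below arrays 2 and 4 for each gene of the lower panel, with array 1 alone far above for Col10a1.

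Different probe sets of a gene sometimes disagreed. Over the 20826 probe sets that name 1 gene, 19.6% were called higher and 15.3% lower. Of 4525 genes with several probe sets, 41 had probe sets called in opposite directions. For Pkd2, a cation channel of the primary cilium, 1 probe set was higher in the epithelial line by 0.49 and another lower (-5.11), and the brighter, lower one stands for the gene here. For Cd99, a membrane glycoprotein, the pair was 0.92 and -2.65, for the growth inhibitor Ing2 0.82 and -2.12, and for the homeobox gene Irx3 0.53 and -2.40. Vash2, Asph, Ppp2r5c, Crebzf, Mtx1, Pik3ip1, Msantd2 and Myo18a also had a gap of over 2 log2 units between such probe sets. The transcript that each probe set reads was not examined.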

How the data were processed

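Total RNA was hybridized to single-colour Affymetrix rat arrays. The authors deposited 1 value per probe set and array, made with RMA per the submitters' processing notes. No source used here gives its version or says which arrays were processed as a set. The deposited values lie on a log2 scale, as read from their range, and were used unchanged.

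Of 31099 probe sets, 57 are controls, 20826 name 1 gene, 436 several and 9780 none in the platform annotation. Symbols were updated through Entrez identifiers (20758 probe sets) or accessions (2) against RefSeq and kept as given for 66. For a gene with several probe sets, the brightest one on average across the 13 arrays was taken, giving 14217 genes, 4525 of them with several probe sets.

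The 7 arrays were grouped by title and compared with limma 3.58.1 in R 4.3.3 (group means, moderated variances, two-sided). P-values were adjusted by the Benjamini-Hochberg method over all genes, and a gene was called at an adjusted p under 0.05. The fit was tested on simulated data. Tables and figures were made in Python 3.11.15 with pandas 2.3.3, numpy 2.4.6 and matplotlib 3.10.9. With 3 and 4 arrays, the number of arrays limits the precision. Microarray levels of different probe sets cannot be ranked against each other.

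The comparison, the 41 gene lists and the 93 ligand and receptor pairs were chosen with earlier results of these data known, so counts over lists are descriptions beside the share of all genes called. Named genes were drawn from up to 5 called members per list and direction, members of the pairs, the 24 largest differences each way, the 12 widest ranges per line, the 12 largest gaps between probe sets called in opposite directions, the 12 narrowest intervals and set defining genes of each group, with a few list members added after their values were seen (Hoxa7, Hoxb13, Sema3a and Sema4d). The 24 largest differences each way were taken among called genes whose arrays of the lines did not overlap. Of 20 alternatives, those leaving out fibroblastic arrays 2 and 4 or 1 and 3 were chosen after seeing the data. Promoter sequences are from RefSeq, build GRCr8.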

Additional observations from a re-analysis of the deposited data

Results flagged for a closer look

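Each of the 371 genes named was examined for a fibroblastic array far from the other 3, where the gap to the nearest array exceeds Dixon's 95% critical value as a share of the range of the group. Chance alone gives such an array in about 1 in 20 groups, and 9 genes had one. The epithelial arrays, 3 in number, are too few for this examination.

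Among junction genes, Cldn18 was highest in fibroblastic array 3, at 5.47 against 4.96 to 5.02 in the others. Cldn7 was lowest in array 2, at 3.98 against 4.25 to 4.28, as was the desmosomal cadherin Dsc2, at 3.57 against 3.89 to 3.90. The Ets factor Ehf was lowest in array 4, at 4.43 against 5.0 to 5.11. These values lie below those of the epithelial arrays, where all 4 genes were called higher.

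The growth factor Fgf9 was highest in fibroblastic array 1, at 5.39 against 4.71 to 4.77, and the myo-inositol transporter Slc2a13 likewise, at 9.75 against 8.95 to 9.06. Fibronectin, Fn1, was lowest in array 4, at 13.58 against 13.73 to 13.76, a gap that is small beside its difference between the lines. Myc was highest in array 3, at 8.19 against 7.49 to 7.59, and remained below the epithelial arrays. The homeobox gene Hoxb13 was lowest in array 3, at 4.86 against 5.10 to 5.12.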

How the results depend on the processing

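The counts of genes higher, lower and at least 2-fold apart stayed within 1.5 times their value under the 20 alternatives, except that 1747 genes were higher at an adjusted p under 0.01. Of 7259 probe sets called, 4483 were called at that threshold. Without the genes of lowest mean level, so that fewer were tested, 3872 intervals lay inside 2-fold. Leaving out 1 array at a time gave 2369 to 2706 genes higher and 1978 to 2279 lower. Same-numbered arrays of the lines deviated together weakly (correlations 0.14, 0.10 and -0.04), so the numbers were not taken as pairs. With the replicate number as a block, 2222 genes were higher, 2030 lower and 3176 at least 2-fold apart, 7091 intervals lay inside 2-fold, and 14 of the named calls were lost. Of 299 genes named in the text and called, 271 kept their call and sign in every alternative, 26 lost the call in at least 1 and 5 changed sign. Of 72 named genes not called, 36 passed in some alternative. The differences that changed sign with the gene called on either side were, with the probe sets of each gene averaged, -1.80 for Cdh2, -0.35 for Crebzf, -0.17 for Ing2, -0.32 for Mtx1, -0.15 for Myo18a and 0.78 for Ppp2r5c, and 1.65 for Ankrd1 without fibroblastic arrays 1 and 3. Probe sets called in opposite directions were averaged for Crebzf, Ing2, Mtx1, Myo18a and Ppp2r5c. For Cdh2 and Ankrd1 the cause was not tested. A further 20 named genes, called in neither setting, changed sign in some alternative. Centring each array on its median lost 0 named calls. Of 82 counts over gene groups, 43 moved by over 1.5 times in some alternative, most of them counts of few genes. Probe sets near the bottom of the scale may lie under the background, which the deposited values do not give.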
